A study of Homo sapiens with 8 samples.

Results

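The zinc transporter genes described here are 10 members of the SLC30 (ZnT) and SLC39 (ZIP) families, out of 18132 genes with a probe set of their own on the array. They are SLC30A1, SLC30A5, SLC30A6, SLC30A7, SLC30A10, SLC39A4, SLC39A6, SLC39A8, SLC39A10 and SLC39A14, and they were chosen by name as probe sets whose only symbol is one of these. They held 34 of the 49395 probe sets. Both families move zinc across membranes in opposite directions. ZnT proteins carry it out of the cytosol, to the outside or into organelles, and ZIP proteins carry it into the cytosol. The liver takes up and stores zinc, and free cytosolic zinc is held low by metallothioneins, small cysteine-rich proteins. The zinc-sensing transcription factor MTF1 binds metal response elements in the promoters of the metallothioneins and of SLC30A1.

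The study treated human hepatocellular carcinoma lines with CU27, a compound that the labels give by this code name only, and asked which mRNAs differed from those of cells given the solvent DMSO. Groups of 2 biological replicates each are used, 3 in all and each kept for 48 h: Hep3B with DMSO, Huh7.5.1 with DMSO and Huh7.5.1 with 10 μM CU27. Hep3B carries integrated hepatitis B virus, and Huh7.5.1 derives from the Huh7 line and is widely used to grow hepatitis C virus, so a difference between them is one between 2 lines that differ in many ways. Hep3B with CU27 was left out, because its columns could be written as weighted sums of the Hep3B DMSO columns within 1e-06 at each of the 49395 probe sets, with weights 2 and -1 on DMSO replicates 2 and 3 for its replicate 3, and weights 3 and -2 for its replicate 2. Any 2 of the 4 Hep3B columns therefore fix the other 2. Whether the Hep3B DMSO columns are the ones measured was not tested, and this touches every difference between the lines given here.

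All values are log2 signals as deposited, in which a step of 1 is a doubling, and levels of different probe sets are not compared. The floor was 6.11, the median of all signals, and a gene whose mean stayed below it in all groups was not tested. The 2 arrays of a group correlated at Pearson r of 0.991 to 0.994 across probe sets, which are not independent replicates. The Hep3B DMSO columns held equal values at 1086 probe sets, among them 2 of SLC39A8 that lay below the floor, and no other pair of the arrays used held any. Array medians were 5.82 and 5.85 in Hep3B and 6.23 to 6.27 in Huh7.5.1. All 7 measured hepatocyte markers lay above the floor in each group, at 10.46 or more in Hep3B, 12.59 or more in Huh7.5.1 with DMSO and 11.32 or more with CU27. Of 3 leukocyte markers, 1 lay above the floor in Hep3B and 0 in Huh7.5.1. Of 4 fibroblast markers, 2 lay above it in Hep3B and 1 in each Huh7.5.1 group. Of 4 endothelial markers, 1 lay above it in Huh7.5.1 with DMSO only.

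The following sequences show where short elements linked to zinc control occur in front of these genes. RefSeq promoter windows on GRCh38.p14, from 250 bases before to 50 after a gene's start, were at hand for 8 of the 10 members (12 windows, since some genes have several starts). The motifs searched, on both strands, were the metal response element core, TGCACNC or TGCGCNC, and CACTCC, the repeat unit of the zinc transcriptional regulatory element, a sequence through which the zinc finger protein ZNF658 is known to act. Capitals mark the matches of CACTCC in the SLC30A5 line and of the core alone in the other lines. Matches on the opposite strand read GGAGTG and GAGTGCA. The first line is the whole stretch before the SLC30A1 start, shown because both probe sets of this exporter rose with CU27.
SLC30A1, chr1:211579162-211579411, minus strand: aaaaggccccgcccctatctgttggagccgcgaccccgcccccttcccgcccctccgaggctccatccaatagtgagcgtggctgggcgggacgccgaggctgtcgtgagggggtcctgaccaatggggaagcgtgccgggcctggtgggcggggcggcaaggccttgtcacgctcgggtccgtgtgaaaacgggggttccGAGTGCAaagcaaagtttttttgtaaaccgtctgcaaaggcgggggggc
SLC30A1, chr1:211579121-211579147, minus strand: agaccgggccGAGTGCAgctgccgtgg
SLC39A10, chr2:195657249-195657275, plus strand: ggagaggagaTGCACACggcactcgag
SLC30A6, chr2:32165726-32165752, plus strand: ttccgccacgGAGTGCAgggacagccg
SLC39A8, chr4:102345585-102345611, minus strand: ccggcggtccTGCGCCCcggcgtggac
SLC39A6, chr18:36129341-36129367, minus strand: cccgcggcgcTGCGCGCggcggtaatt
SLC30A5, chr5:69093944-69093999, plus strand: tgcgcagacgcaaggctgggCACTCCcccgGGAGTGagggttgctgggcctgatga

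SLC30A1 held the core at 2 places, at -49 to -43 and at 25 to 31 relative to the start. SLC30A6, SLC39A6, SLC39A8 and SLC39A10 held it once, in SLC39A8 in only 1 of its several windows. In SLC39A10 it lay after the start of the second of its 2 windows. So 5 of the 8 members had at least 1 match, counted by gene over 12 windows. Among all 35116 windows of this length, 29.6% held 1 or more cores and 8.6% held 2 or more. This share counts windows, and a gene with several windows has more chances of a match, so the 2 are not comparable. The metallothionein genes with a window were MT1B, MT1H, MT1X, MT2A and MT4, the last below the floor in all groups. These 5 held 3 to 8 cores each in the window with the most, while 2.3% of all windows held 3 or more. SLC30A5 held 2 CACTCC units in opposite orientation, at -50 to -45 and -40 to -35. SLC30A6, SLC39A8 and SLC30A10 held 1 each, and in SLC30A6 it overlapped the core. In SLC39A8 and SLC30A10 it lay in only 1 of the gene's several windows. CACTCC occurred in 19.7% of all windows, and 2.4% held 2 or more. SLC30A7 held neither motif. These are matches of letters in a window and not evidence of binding.

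With CU27 in Huh7.5.1 cells, the exporter SLC30A1 rose, and the exporter SLC30A10 and the importer SLC39A10 fell. The other 6 of the 9 members that reached the floor did not pass the test. Among all 11383 genes tested, 12.6% rose and 12.1% fell (limma, adjusted p under 0.05). For 9 genes such shares come to about 1 each way, so the members' count is not a result about the members. Without adjustment the counts would be 1 and 4, but the shares of all genes at that threshold were not counted. The median difference of the 9 members was -0.10, against 0.02 over all genes tested. The CU27 and DMSO arrays did not overlap for 6 of the 9 members, against 63.8% of all genes. The arrays hold bulk RNA, in which fewer cells of a kind and less RNA per cell cannot be told apart. In the same comparison 3 of the 7 hepatocyte markers fell (APOB by 1.28, TTR by 0.94 and SERPINA1 by 0.66) and 0 rose. Of the markers of other cell types, PDGFRA fell by 1.87 (limma adjusted p = 0.003), from 8.32 and 8.63 to 6.39 and 6.81. CD14 also passed, with a difference of -0.69 (limma adjusted p = 0.0214), but lay below the floor in both Huh7.5.1 groups. The fibroblast marker LUM, below the floor in both as well, differed by 0.56 (0.117) and the endothelial marker KDR by -0.34 (0.154), and neither passed. The part of these in the transporter differences was not tested.

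**Figure D1:**
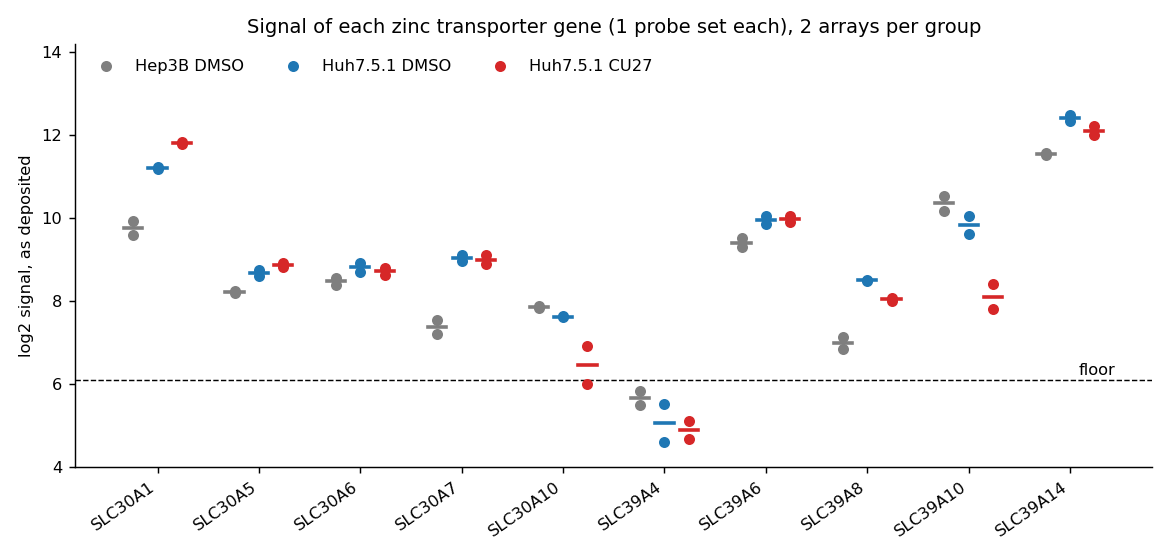
Deposited log2 signal (vertical axis) of the probe set used for each of the 10 genes (horizontal axis), 1 point per array and a bar at the mean of the 2 arrays of a group, with the floor as a dashed line. SLC39A10 falls from 10.05 and 9.61 with DMSO to 8.42 and 7.81 with CU27 in Huh7.5.1, SLC30A1 rises, and SLC39A4 lies below the floor on all 6 arrays.

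SLC30A1 encodes ZnT1, the exporter that moves cytosolic zinc across the plasma membrane. Its signal was 11.18 and 11.22 with DMSO and 11.84 and 11.80 with CU27 in Huh7.5.1. Both CU27 arrays lay above both DMSO arrays. It rose by 0.62 ± 0.13 in log2 units (here and throughout ± is the standard error, from 2 arrays per group; 95% interval 0.32 to 0.91, 1.53-fold, limma adjusted p = 0.0107). This call was lost when either DMSO array was left out (adjusted p = 0.059 without replicate 1 and 0.0632 without replicate 2). The second probe set of the gene read 8.93 and 8.74 with DMSO and 11.16 and 11.77 with CU27, again with no overlap. There the rise was 2.63 ± 0.21, or 6.17-fold (95% interval 2.14 to 3.11, limma adjusted p over probe sets = 0.00079). It kept its call with each array left out, at 2.32 to 2.93, in a check added after the data were seen. The probe sets therefore gave the same direction and very different sizes. The set with the smaller rise has the suffix _s_at, which Affymetrix gives to probes shared by several transcripts, and the other is gene-specific (_at). The mean of both gave 1.62.

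SLC30A10 encodes a cell-surface exporter best known for carrying manganese out of liver cells. Its signal was 7.64 and 7.61 with DMSO and 6.91 and 5.99 with CU27. The 2 DMSO arrays nearly coincided, and the CU27 arrays lay below them and apart from each other. It fell by 1.17 ± 0.26 (95% interval -1.76 to -0.58, 2.25-fold lower, limma adjusted p = 0.0129). Without DMSO replicate 1 or 2 it no longer passed (adjusted p = 0.0596 and 0.0736), and with CU27 replicate 2 left out the difference was -0.71. The second probe set read 6.92 and 6.92 with DMSO and 6.13 and 5.43 with CU27. Its CU27 mean lay below the floor, so it was at least 1.76-fold lower, with a fitted difference of -1.14 ± 0.23 (limma adjusted p over probe sets = 0.011, 0.0644 without DMSO replicate 2). Both probe sets of the gene thus fell.

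SLC30A5 and SLC30A6 encode ZnT5 and ZnT6, which pair to load zinc into the early secretory pathway, and SLC30A7 encodes ZnT7, which does so on its own. None of the 3 genes passed the test with CU27. SLC30A5 read 8.60 and 8.75 with DMSO and 8.82 and 8.92 with CU27, a difference of 0.20 ± 0.14 (95% interval -0.12 to 0.51, limma adjusted p = 0.348). SLC30A6 read 8.93 and 8.70 against 8.79 and 8.64, a difference of -0.10 ± 0.15 (95% interval -0.44 to 0.25). SLC30A7 read 9.12 and 8.97 against 8.89 and 9.11, a difference of -0.05 ± 0.17 (95% interval -0.43 to 0.34). The DMSO and CU27 arrays overlapped for SLC30A6 and SLC30A7 and not for SLC30A5. One further probe set of SLC30A5, with the suffix _x_at for probes that can also match other sequences, read 7.71 and 7.67 with DMSO and 8.32 and 8.39 with CU27. It rose by 0.67 ± 0.15 (limma adjusted p over probe sets = 0.0181), and this call ended when either DMSO array or the second CU27 array was left out (adjusted p = 0.0705, 0.108 and 0.0741). The other 3 tested probe sets of SLC30A5 differed by 0.03 to 0.20 and did not pass.

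SLC39A10 encodes ZIP10, a plasma membrane importer that works in a complex with ZIP6. Its signal was 10.05 and 9.61 with DMSO and 8.42 and 7.81 with CU27. Both CU27 arrays lay more than 1 log2 unit below the lower DMSO array. It fell by 1.72 ± 0.23 (95% interval -2.24 to -1.19, 3.28-fold lower, limma adjusted p = 0.00198), the 55th largest fall among the 11383 genes. It passed under all 17 alternatives run, at -2.02 to -1.38 (adjusted p 6.62e-05 to 0.0133). A second probe set read 7.01 and 6.57 with DMSO and 5.60 and 5.36 with CU27, at least 1.61-fold lower (fitted difference -1.31 ± 0.23, limma adjusted p over probe sets = 0.00645). The third lay below the floor in all groups by its mean and differed by -1.13 without a test.

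SLC39A6 encodes ZIP6, the partner of ZIP10, and its 3 probe sets did not pass the test with CU27. The set used for the gene read 9.86 and 10.05 with DMSO and 9.90 and 10.06 with CU27, which overlap. The difference was 0.03 ± 0.14 (95% interval -0.30 to 0.35, limma adjusted p = 0.925), and the other probe sets gave -0.00 and 0.06. The ZIP6 and ZIP10 genes were not tested against each other.

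SLC39A8 and SLC39A14 encode ZIP8 and ZIP14, closely related importers that also carry manganese and iron, and ZIP14 is the main route for non-transferrin-bound iron into hepatocytes. SLC39A8 read 8.51 and 8.49 with DMSO and 8.0 and 8.09 with CU27, with no overlap. The difference of -0.46 ± 0.16 (95% interval -0.81 to -0.11) missed the threshold (limma adjusted p = 0.0605) and passed it after quantile normalization (adjusted p = 0.0435). SLC39A14 read 12.34 and 12.48 against 12.22 and 12.00, again with no overlap. Its difference of -0.30 ± 0.10 (95% interval -0.53 to -0.07) missed the threshold as well (limma adjusted p = 0.0595). The difference was -0.41 without CU27 replicate 1 and -0.19 without CU27 replicate 2. With all 8 columns in the fit it passed (limma adjusted p = 0.0455). That fit takes in the Hep3B CU27 columns, which hold no new measurement, so this pass carries no weight. SLC39A4, the intestinal importer whose loss causes acrodermatitis enteropathica, read 4.61 and 5.52 with DMSO and 4.68 and 5.10 with CU27. It was below the floor in all 3 groups and was not tested.

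**Figure D2:**
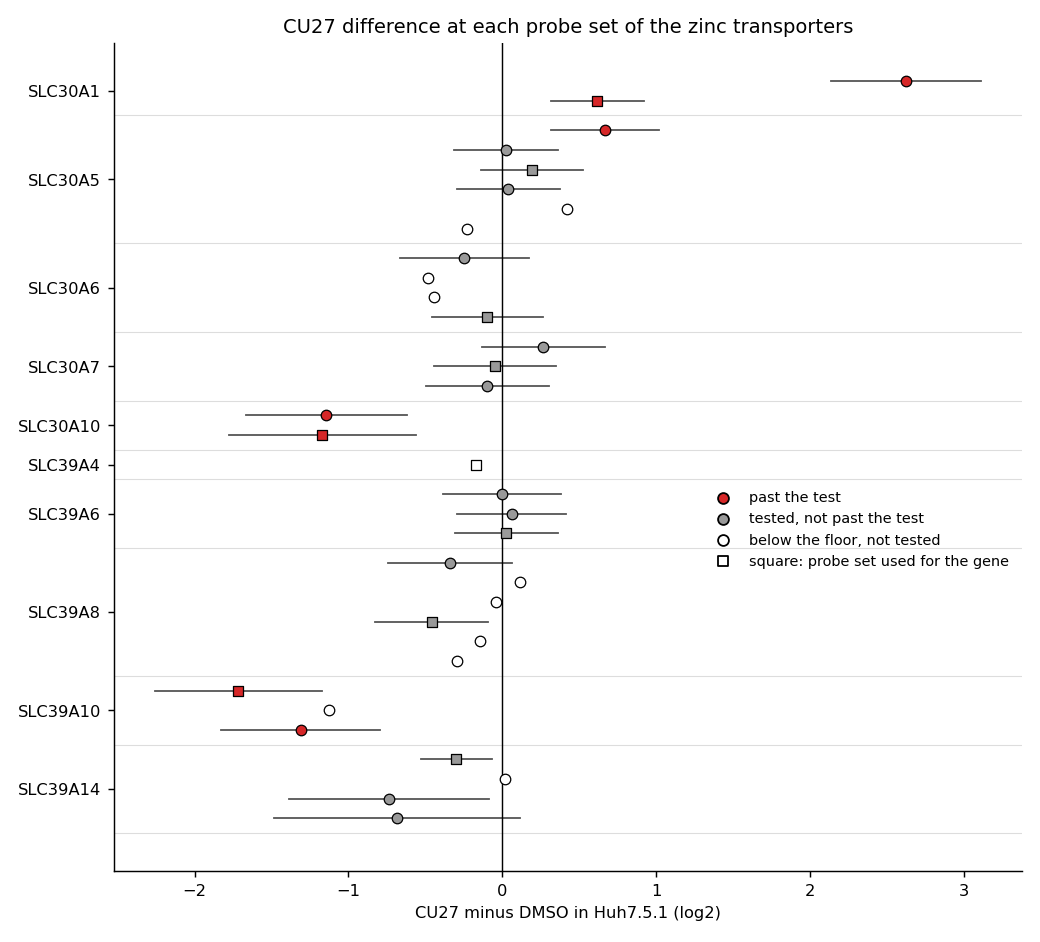
CU27 minus DMSO difference in Huh7.5.1 (horizontal axis, log2) at each of the 34 probe sets, grouped by gene, with 95% intervals where tested. Squares are the sets used for the gene, red symbols passed the test and open ones lay below the floor. The SLC30A1 sets lie at 0.62 and 2.63, and all called sets of SLC30A10 and SLC39A10 lie to the left of 0.

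Taken by probe set, 23 of the 34 reached the floor. With CU27, 3 of them rose (2 of SLC30A1 and 1 of SLC30A5) and 4 fell (2 of SLC30A10 and 2 of SLC39A10). Over all 27836 probe sets tested, 10.4% rose and 11.3% fell. Probe sets of 1 gene share their target and are not independent.

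Huh7.5.1 and Hep3B were then compared in DMSO alone. Both comparisons use the same 2 Huh7.5.1 DMSO arrays, so they are not independent of each other. On the deposited scale 6 of the 9 tested members were higher in Huh7.5.1 (SLC30A1, SLC30A5, SLC30A7, SLC39A6, SLC39A8 and SLC39A14), 0 were lower and 3 were not called (limma). Without adjustment the counts would be 6 and 1, with no shares of all genes counted at that threshold. Among all genes tested, 41.0% were higher and 22.9% lower. The arrays of the lines did not overlap for any of the 9, against 84.8% of all genes. The median difference over all genes was 0.22 on this scale, and that of the 9 members was 0.54. When the array medians were aligned, the median over all genes became -0.22, and 23.2% of genes were higher and 40.8% lower. Higher calls then numbered 4 (SLC30A1, SLC30A7, SLC39A8 and SLC39A14), and SLC30A10 and SLC39A10 were lower. The members' counts were not tested against these shares. Of the 7 hepatocyte markers, 5 were higher in Huh7.5.1 on the deposited scale. With aligned medians AFP, TTR and FGB stayed higher, by 2.82, 0.93 and 2.31, and APOA1 lost its call (-0.03, limma adjusted p = 0.891). ALB (-0.19, adjusted p = 0.0411), APOB (-0.50, 0.0162) and SERPINA1 (-0.40, 0.00183) were then lower, so the direction of these markers depended on the scale. Of the markers of other cell types, PDGFRA was higher in Huh7.5.1 by 1.86 on the deposited scale (limma adjusted p = 0.000508). CD14 and LUM were lower, by at least 1.41-fold and 1.03-fold, since both lay below the floor in Huh7.5.1. These calls held with aligned medians, and KDR did not pass on the deposited scale. The signal of 3′ over 5′ ACTB probes, a measure of RNA integrity, also moved with the line. It was 2.28 and 1.60 in Hep3B and 0.94 to 1.21 in Huh7.5.1 in log2 units, and the part of either in the differences was not tested.

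SLC30A7 had the largest difference between the lines among the members, taking the probe set used for each gene. It read 7.54 and 7.20 in Hep3B and 9.12 and 8.97 in Huh7.5.1, a gap of more than 1 log2 unit between the nearest arrays. The difference was 1.68 ± 0.17 (3.20-fold higher, limma adjusted p = 3.67e-05), and 1.26 with aligned medians. Another probe set gave 1.72, and the third passed but lay below the floor in Hep3B and at it in Huh7.5.1, so it gives no size. SLC39A8 read 7.13 and 6.84 in Hep3B and 8.51 and 8.49 in Huh7.5.1, a difference of 1.52 ± 0.16 (2.87-fold, limma adjusted p = 4.14e-05, 1.10 aligned). Its other tested probe set gave 0.90 (limma adjusted p over probe sets = 0.00207). SLC30A1 read 9.94 and 9.59 against 11.18 and 11.22, a difference of 1.44 ± 0.13 (2.70-fold, limma adjusted p = 2.08e-05, 1.02 aligned). Its second probe set gave 1.35 ± 0.21, so for this comparison the 2 sets lay close together. SLC39A14 read 11.58 and 11.52 against 12.34 and 12.48, a difference of 0.86 ± 0.10 (1.82-fold, limma adjusted p = 9.14e-05, 0.44 aligned). These 4 genes passed in every alternative run that gave a value for them.

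Another 2 probe sets of SLC39A14 lay below the floor in Hep3B and above it in Huh7.5.1. One read 4.41 and 4.53 in Hep3B and 7.28 and 7.11 in Huh7.5.1 with DMSO, at least 2.12-fold higher (fitted difference 2.72, limma adjusted p over probe sets = 6.66e-05). The other read 5.41 and 5.43 against 8.08 and 7.82, at least 3.58-fold higher (2.52, adjusted p = 0.000308). Both therefore gave a larger difference than the set used for the gene. With CU27 they differed by -0.73 ± 0.29 and -0.68 ± 0.35 and did not pass (adjusted p = 0.101 and 0.2). Counting all 34 probe sets, 14 of the 23 tested were higher in Huh7.5.1 and 0 lower (limma), against 44.8% and 19.4% of all probe sets. At an unadjusted p under 0.05, 1 was lower, and the share of all probe sets at that threshold was not counted.

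**Figure D3:**
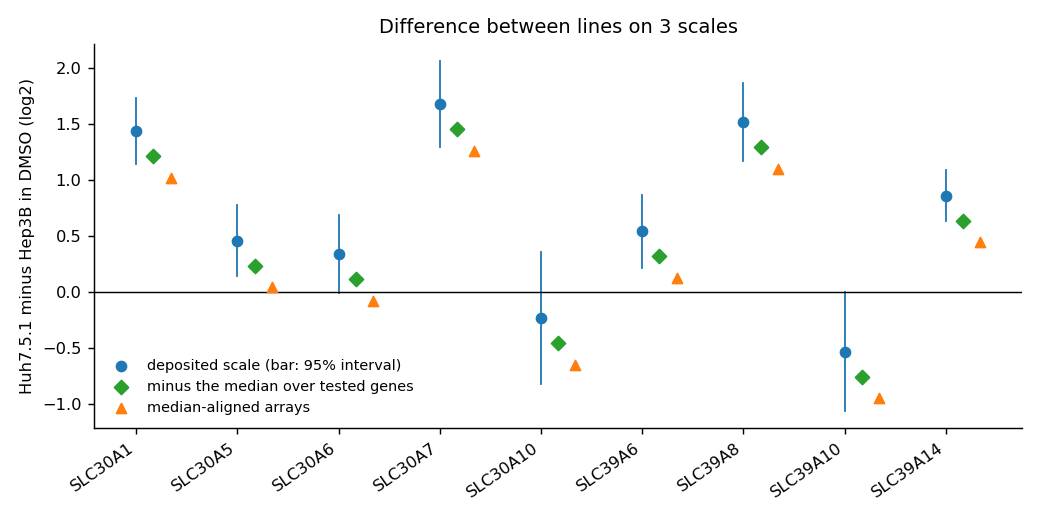
Huh7.5.1 minus Hep3B difference in DMSO (vertical axis, log2) for the 9 tested genes on the deposited scale with 95% intervals (circles), minus the median over all tested genes (diamonds) and after aligning array medians (triangles). SLC30A1, SLC30A7, SLC39A8 and SLC39A14 stay above 0 on all 3 scales, and SLC30A6 crosses it, from 0.34 to -0.08.

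The 5 other tested members depended more on the scale. SLC39A6 read 9.53 and 9.30 in Hep3B against 9.86 and 10.05 in Huh7.5.1, a difference of 0.54 ± 0.14 (limma adjusted p = 0.00932), which became 0.13 (adjusted p = 0.478) with aligned medians. SLC30A5 read 8.24 and 8.19 against 8.60 and 8.75, a difference of 0.46 ± 0.14 (limma adjusted p = 0.0178) that became 0.04 (0.819). The SLC30A5 set used is an _x_at set, and the gene's other tested sets gave 0.13 to 0.21 and did not pass. Its call ended with the mean of its probe sets (0.18, adjusted p = 0.217). Without _x_at and _s_at sets both calls ended (SLC30A5 0.15, 0.377, and SLC39A6 0.29, 0.119). These calls were also lost in some fits without 1 array: for SLC39A6 without Hep3B replicate 3 (0.076) or Huh7.5.1 DMSO replicate 2 (0.0748), and for SLC30A5 without either Hep3B array (0.0543 and 0.078) or Huh7.5.1 DMSO replicate 2 (0.118). SLC39A10 read 10.54 and 10.18 in Hep3B against 10.05 and 9.61. Its difference of -0.53 ± 0.23 missed the threshold (limma adjusted p = 0.0725) and was -0.95 (0.00386) with aligned medians, and it passed in 6 of 16 alternatives. SLC30A10 read 7.84 and 7.87 against 7.64 and 7.61, with a difference of -0.23 ± 0.26 (0.452) that became -0.65 (0.0454). SLC30A6 read 8.56 and 8.39 against 8.93 and 8.70, a difference of 0.34 ± 0.15 (0.0815) that turned to -0.08 (0.665). On the deposited scale its other tested probe set passed (0.50, limma adjusted p over probe sets = 0.0406), as did the mean of its probe sets (0.38, limma adjusted p = 0.0455). SLC39A4 read 5.50 and 5.85 in Hep3B, below the floor there as in Huh7.5.1.

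The 3 groups can be set in order for each member on the deposited scale. SLC30A1 was lowest in Hep3B and highest in Huh7.5.1 with CU27, and both neighbouring pairs in that order differed past the threshold. SLC39A10 ran the other way, with Hep3B highest and CU27 lowest, and Hep3B and Huh7.5.1 with DMSO did not differ past it. SLC30A10 had the same order as SLC39A10, again with no call between the lines in DMSO. For SLC30A7, SLC39A8 and SLC39A14 the DMSO arrays of Huh7.5.1 had the highest mean and Hep3B the lowest, and the 2 Huh7.5.1 groups did not differ past the threshold.

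Among the other 14 zinc transporters, 9 reached the floor. With CU27, 1 of them rose and 0 fell (limma), against 12.6% and 12.1% of all genes tested. At an unadjusted p under 0.05 the counts were 1 and 2, and the shares given are not at that threshold. SLC39A13, a ZIP of the early secretory pathway linked to connective tissue disease, read 6.80 and 6.95 with DMSO and 7.36 and 7.71 with CU27. It rose by 0.66 ± 0.17 (limma adjusted p = 0.0212), a call that ended when DMSO replicate 1 (0.121), replicate 2 (0.0811) or the second CU27 array (0.109) was left out. Between the lines 1 was higher in Huh7.5.1 and 3 were lower, against 41.0% and 22.9% of all genes tested. SLC39A7, the zinc release channel of the endoplasmic reticulum, was higher by 1.19 ± 0.24 (limma adjusted p = 0.00246), or by 0.47 with the mean of its probe sets. SLC39A11, SLC30A9 and SLC39A13 were lower by log2 differences of -0.72, -0.57 and -0.53, and each stayed lower, with SLC39A7 higher, when medians were aligned. SLC39A11 lost its call with the mean of its probe sets (-0.13, adjusted p = 0.392), SLC30A9 without Huh7.5.1 DMSO replicate 1 (0.0525) and SLC39A13 without that array (0.116) or either Hep3B array (0.0707 and 0.0713). Across all 24 transporters of both families, 18 were tested, of which 2 rose and 2 fell with CU27. The shares over all genes tested were 12.6% and 12.1%, so this count is not a result about the transporters.

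Most of the tested zinc buffering and sensing genes were metallothioneins. Of 14 on the array, 10 were tested, of which 8 rose with CU27 and 0 fell, also at an unadjusted p under 0.05 (limma), with a median difference of 2.88. Of all genes tested, 12.6% rose and 12.1% fell at the adjusted threshold. All 8 that rose are metallothioneins: MT1B, MT1E, MT1F, MT1G, MT1H, MT1M, MT1X and MT2A. MT1X rose by 2.44, MT1F by 3.31, MT1G by 4.10, MT1M by 5.48 and MT1B by 6.65. No alternative run ended any of these 8 calls. They include MT2A, the form expressed in most tissues, which read 12.97 and 12.24 with DMSO and 13.97 and 14.16 with CU27 and rose by 1.46 ± 0.21 (limma adjusted p = 0.00237), or by 0.86 with the mean of its probe sets. MT1H lay below the floor with DMSO, at 4.25 and 4.20, and read 10.20 and 10.84 with CU27, at least 21.3-fold higher. Metallothionein transcripts are nearly identical, so the level of each is uncertain. MTF1 itself read 8.04 and 7.82 with DMSO and 8.18 and 8.56 with CU27, a difference of 0.44 ± 0.24 that did not pass (limma adjusted p = 0.205), and MT3, the brain form, lay below the floor in both Huh7.5.1 groups and did not pass (0.869). ZNF658 lay below the floor in all groups.

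Between the lines, 8 of these 10 genes were higher in Huh7.5.1 and 0 lower (limma), also at an unadjusted p under 0.05. Of all genes tested, 41.0% were higher and 22.9% lower at the adjusted threshold. The median over the 10 was 2.56, while MT1H and MT3 did not pass. MT2A was higher by 3.49 ± 0.21 (limma adjusted p = 2.02e-06), from 8.95 and 9.29 in Hep3B, or by 1.93 with the mean of its probe sets. MT1X was higher by 3.41, MT1E by 2.70 and MT1G by 2.43, and MT1F was at least 12.6-fold higher. MTF1 read 6.47 and 5.79 in Hep3B and was higher by 1.80 ± 0.24 in Huh7.5.1 (limma adjusted p = 0.000183, 1.38 aligned). These differences exceed the 0.22 shift over all genes, and each kept its direction and call with aligned medians. MT1B, below the floor in Hep3B and at least 1.57-fold higher in Huh7.5.1, did not keep its call there (adjusted p = 0.301), nor with either Hep3B array left out (0.172 and 0.116) or the first Huh7.5.1 DMSO array (0.304).

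**Figure D4:**
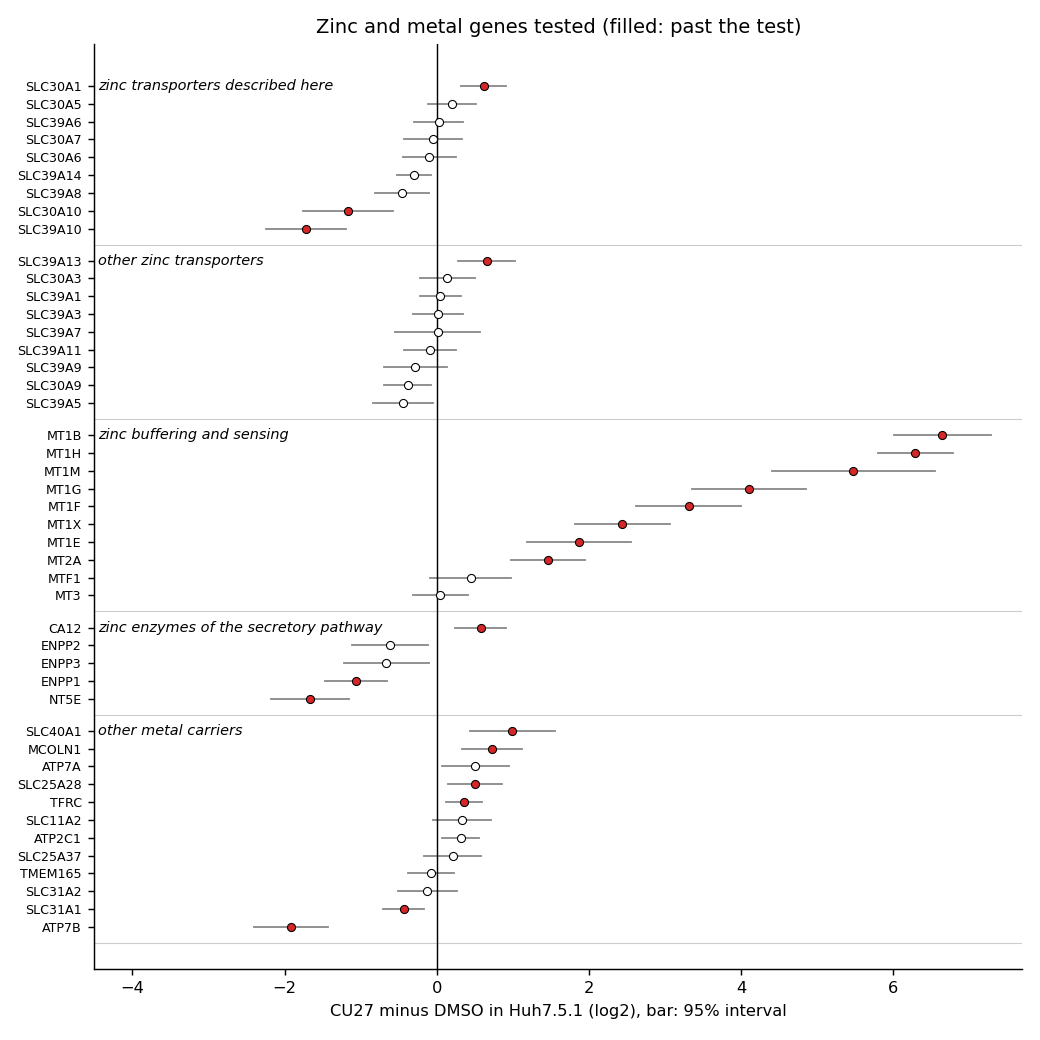
CU27 minus DMSO difference in Huh7.5.1 (horizontal axis, log2, bars 95% intervals) for every tested gene of the 5 lists, filled where past the test. The 8 called metallothioneins lie at 1.46 or above and the transporters between -1.72 and 0.66. MT3 and ENPP3 were below the floor in both Huh7.5.1 groups, and MT1H and ATP7A with DMSO, so their points are fitted values.

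Enzymes that receive zinc in the secretory pathway were on the array with 9 of 10 genes, and 5 were tested. With CU27, NT5E (CD73, which makes adenosine from AMP) read 9.10 and 9.34 with DMSO and 7.76 and 7.35 with CU27 and fell by 1.67 ± 0.23 (limma adjusted p = 0.00198). ENPP1, which makes pyrophosphate from ATP, fell by 1.06 ± 0.18 (limma adjusted p = 0.00433). CA12, a membrane carbonic anhydrase, rose by 0.58 ± 0.15 (limma adjusted p = 0.0216), a call that ended when either DMSO array (0.0571 and 0.155) or the first CU27 array (0.0661) was left out. The other 2 did not pass, of which ENPP3 lay below the floor in both Huh7.5.1 groups. So 1 of the 5 rose and 2 fell, against 12.6% and 12.1% of all genes tested. At an unadjusted p under 0.05 the list had 1 higher and 4 lower, and the shares given are not at that threshold. Between the lines 2 were higher in Huh7.5.1 (NT5E by 1.22 and ENPP1 by 0.49) and 3 lower (ENPP2, CA12 and ENPP3). The shares over all genes tested were 41.0% and 22.9%. ENPP1 lost its call with aligned medians (0.07, adjusted p = 0.753) and without any 1 of the 4 DMSO arrays (0.0731 to 0.183). ENPP3 lost its call without Hep3B replicate 2 (0.268) or either Huh7.5.1 DMSO array (0.187 and 0.0566).

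Carriers of other metals were tested for 12 of 14 genes, of which 4 rose and 2 fell with CU27, with a median of 0.32. Of all genes tested, 12.6% rose and 12.1% fell. ATP7B, the copper exporter mutated in Wilson disease, read 7.84 and 8.34 with DMSO and 6.41 and 5.93 with CU27. It fell by 1.92 ± 0.22 (limma adjusted p = 0.00096), which no alternative run ended. The copper importer SLC31A1 fell by 0.44 ± 0.12 (limma adjusted p = 0.0305). The iron exporter SLC40A1 (ferroportin) rose by 0.99 ± 0.25 (limma adjusted p = 0.0198), the lysosomal channel MCOLN1 by 0.73 ± 0.17, the mitochondrial iron carrier SLC25A28 by 0.51 ± 0.16 and the transferrin receptor TFRC by 0.36 ± 0.10. Leaving out single arrays ended each of these calls other than that of ATP7B. Without DMSO replicate 2 the adjusted p was 0.152 for SLC31A1, 0.0991 for SLC40A1, 0.136 for MCOLN1, 0.219 for SLC25A28 and 0.153 for TFRC, and the SLC40A1 difference was 0.56. Without CU27 replicate 1 the TFRC difference was 0.21 (0.111), and its call also ended with the mean of its probe sets (0.21), without the intensity trend (0.113) and with only the 4 arrays compared (0.0709). Between the lines 4 were higher in Huh7.5.1 and 5 lower, against 41.0% and 22.9% of all genes tested. SLC31A1 was higher by 1.56 and SLC31A2, the vesicular copper transporter, by 1.04 (0.62 with aligned medians), and the mitochondrial carriers SLC25A37 by 0.88 (0.47 with aligned medians) and SLC25A28 by 0.78, of which SLC25A28 lost its call with aligned medians (0.37, adjusted p = 0.0675). SLC40A1 was lower with a difference of -1.06 (-0.63 without Huh7.5.1 DMSO replicate 2), and the copper exporter ATP7A was at least 1.6-fold lower.

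The tested genes whose 6 values ran most like those of SLC30A1 were CRY1, ABCG2, NFIL3, UGP2 and NCKAP1, with Pearson r of 0.9983 to 0.9991 over the 6 arrays. ABCG2, an efflux pump for drugs and urate, had a CU27 difference of 1.01 and a line difference of 2.42, against 0.62 and 1.44 for SLC30A1. For SLC39A10 they were CGGBP1, C1orf56, C11orf58, PLS3 and PON3, at r of 0.9914 to 0.9973. PON3, a liver-made lactonase, had a CU27 difference of -1.02, and the other 4 had -0.63 to -0.31. With 6 arrays in 3 groups, many of 11383 genes can reach such values, and they are given as a description.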

How the data were processed

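RNA of 6 cultures, 2 biological replicates per group, was measured on 1 Affymetrix 3′ expression array each, per the labels. The authors deposited log2 signals of 49395 probe sets in 8 columns. That they are log2 follows from their range alone. MAS5 is named in the submitters' processing notes. How the arrays were scaled is not given in these sources, so scale and centring between the lines stay unknown. No depth exists for arrays, and their number limits the precision. Probe sets with 1 symbol in the platform annotation numbered 44988, those with several 1832 and those with none 2473, and the 102 control probe sets were left out. Of the named probe sets, 44961 were matched by Entrez identifier to RefSeq names, and 0 symbols changed.

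Of the probe sets of each of 18132 genes, the one with the highest mean was kept. Genes whose mean reached the 50th percentile of all signals, the floor, in at least 1 group were fitted with limma 3.58.1 in R 4.3.3 (lmFit, contrasts, eBayes with an intensity trend). The fit had 3 residual and 5.87 prior degrees of freedom. Benjamini-Hochberg adjustment ran over all 11383 genes tested, with a threshold of 0.05. A second fit took all 27836 probe sets that reached the floor. Errors are standard errors of the fit, with 2 arrays per group, and an exact permutation test of 2 arrays against 2 could not go below p = 0.333. Only the CU27 contrast was run on simulated data, with independent noise and no shift between arrays, so this does not cover the line comparison. The alternatives were another scaling (median-aligned or quantile), no floor or one at the 65th percentile, other rules for the probe set of a gene, no intensity trend, other sets of arrays, leaving out each array and a replicate block.

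The members and gene lists were chosen with earlier results of these data known. The text names every member and, from each other list, the called genes with the smallest p, at most 6 per comparison. MT1E, MT2A, MTF1 and MT3 with CU27, MT1B, MT1H and MT3 between the lines, the cell type markers, MT4 and ZNF658 were named after their values were seen. The replicate numbers are labels only: nothing in the labels ties equal numbers to a shared day or culture.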

Additional observations from a re-analysis of the deposited data

How the results depend on the processing

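The counts of members called with CU27 moved by over 1.5 times only when an array was left out. The number of members that rose with CU27 ranged from 0 to 1 and the number that fell from 1 to 3 with each array left out. The number of all genes called with CU27 was 2809, ranged from 900 to 2923 with an array left out and was 2283 to 3054 under the other alternatives without a block. It fell to 1639 and 900 when the first and the second Huh7.5.1 DMSO array were left out, and to 1517 for the second CU27 array. Between the lines 7283 genes were called, and 5877 to 7567 with an array left out. The number of members lower in Huh7.5.1, 0 as reported, was 2 with median-aligned arrays, 1 with quantile normalization, 1 with only the 4 arrays compared and 0 to 1 with an array left out. The cause was not tested. Differences near 0 changed sign: SLC30A6 between lines to -0.080 with median-aligned arrays and SLC30A7 with CU27 to 0.041 with the mean of all probe sets. With an array left out, the CU27 difference ranged from -0.21 to 0.017 for SLC30A6, -0.15 to 0.063 for SLC30A7 and -0.068 to 0.12 for SLC39A6, none of them called. SLC39A8 had no value with the mean of its probe sets, which lay below the floor.

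With the replicate number as a block, 3526 genes were called with CU27, and 1 member rose and 3 fell, the third being SLC39A8 (-0.46, adjusted p = 0.0419). It changed no other member's call. The deviations of same-numbered arrays from their group means correlated at 0.263, and with 2 pairs and no label that ties them the numbers were not taken as pairs.

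A group left with 1 array was assumed to vary like the others. With 2 arrays per group and signals of unknown scaling, a p that missed the threshold does not show equal levels. Line differences smaller than the shift between scales have no settled direction.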
